A study of Mus musculus with 48 samples.

Results

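The 9 genes described are expressed in striatal projection neurons: Drd1, Drd2, Ppp1r1b, Adora2a, Penk, Pde10a, Rgs9, Adcy5 and Pde1b. They were listed by name, with earlier results of these data known, and matched by Ensembl identifier to the deposited counts. All 9 of 9 were among the 46983 genes listed. Of these, 8 were among the 19970 genes tested, which had more than 10 reads over all libraries, and Drd2 was not. The measurements were 3′ end RNA sequencing of bulk tissue from male mice of 3 months, 48 libraries in 11 groups. In the MCAO groups the middle cerebral artery was permanently closed by coagulation and transection, and tissue was taken after 3 h (n = 5), 12 h (n = 5), 24 h (n = 4), 3 days (n = 5) and 7 days (n = 5). Shams of the same 5 times (n = 4 each) had the operation without the coagulation, and the control group (n = 4) was intact. The labels call the tissue cortical, with lesioned and spared parts of the ipsilateral side, and the study's bulk sequencing methods also name the injured cortical region. Its general dissection methods describe an isolated forebrain hemisphere. Its results say that the bulk samples took up almost a whole hemisphere of the lesioned side. How much striatum each piece held is not given in the sources used here.

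Striatal projection neurons are the GABAergic output cells of the striatum, which lies beneath the cortex in the territory of the middle cerebral artery. The study describes the infarcts of its occlusion model as small and places them in the parietal cortex. Striatal projection neurons fall into a direct-pathway type that expresses Drd1, and an indirect-pathway type that expresses Drd2, Adora2a and Penk. Dopamine and adenosine receptors of these cells act on Adcy5, the main adenylyl cyclase of the striatum, through G proteins. Cyclic AMP then acts through protein kinase A on the product of Ppp1r1b, which in its phosphorylated form inhibits a protein phosphatase. The products of Pde10a and Pde1b hydrolyse cyclic nucleotides, and that of Rgs9 shortens G protein signals.

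RefSeq start windows (GRCm38.p6) were found for 6 of the 9 genes: Drd1, Drd2, Pde10a, Rgs9, Adcy5 and Pde1b. The 250 bases upstream of the outermost start are shown for 3 of them. Rgs9 and Pde1b were shown because their levels moved closely together between libraries, and Adcy5 because it departed most from the other genes in the measurements described further on. None of these 3 stretches held an annotated exon. Capitals mark every match, on either strand, to the GC box GGGCGG, the CRE half-site TGACG or the full CRE TGACGTCA, which contains the half-site.

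Rgs9, chr11:109298182-109298431, minus strand: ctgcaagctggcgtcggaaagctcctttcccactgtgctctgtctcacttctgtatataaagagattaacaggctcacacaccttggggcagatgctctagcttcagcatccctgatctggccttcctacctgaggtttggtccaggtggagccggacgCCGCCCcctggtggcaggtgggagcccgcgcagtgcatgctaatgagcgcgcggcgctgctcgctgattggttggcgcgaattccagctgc

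Pde1b, chr15:103502784-103503033, plus strand: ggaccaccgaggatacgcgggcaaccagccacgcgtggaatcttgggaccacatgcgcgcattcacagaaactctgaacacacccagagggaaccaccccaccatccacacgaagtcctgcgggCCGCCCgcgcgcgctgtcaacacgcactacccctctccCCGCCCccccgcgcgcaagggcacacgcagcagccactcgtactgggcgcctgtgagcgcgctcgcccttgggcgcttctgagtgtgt

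Adcy5, chr16:35154614-35154863, plus strand: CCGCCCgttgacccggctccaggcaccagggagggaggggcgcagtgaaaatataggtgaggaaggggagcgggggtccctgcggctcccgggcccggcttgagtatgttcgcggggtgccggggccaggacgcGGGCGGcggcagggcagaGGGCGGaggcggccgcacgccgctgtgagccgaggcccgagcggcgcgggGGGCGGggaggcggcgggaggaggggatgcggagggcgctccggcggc

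Every capital in these stretches belongs to a GC box, with 1 in Rgs9, 2 in Pde1b and 4 in Adcy5. The GC box occurred in 32.7% of 32851 windows of the same length over all genes. The CRE half-site occurred in 17.8% of them and the full CRE in 1.55%, and neither occurred in the 10 windows of the 6 genes. The Adcy5 stretch was 78.0% G and C, that of Pde1b 67.2% and that of Rgs9 59.6%, against a median of 52.4% over all windows. These matches describe letters only.

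The libraries held 1522668 to 2826735 reads in genes (median 1935856). 3 of the 48 stood apart, which were sham 12 h replicate A, MCAO 12 h replicate D and sham day 7 replicate D. In them 154 to 167 of 9880 genes lay more than 2 log2 units from the rest of their group, against 1 to 148 (median 12) in the other 45. They also held 36.5 to 79.4 CPM of the lysosomal gene Psap, against 451 to 2853 CPM elsewhere, a gene picked after its values were seen. CPM stands for read counts scaled to a common library total (edgeR's cpm with TMM factors).

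Drd2 was hardly detected. Its 9 reads in all came from 4 libraries, and 44 of 48 libraries had none, while Adora2a and Penk, of the same indirect-pathway cells, had 3805 and 21145 reads and Drd1 had 10983. Why Drd2 was so low was not tested. Sham 12 h replicate A held 6 of the reads (3.35 CPM). The gene of this dopamine receptor lies on chromosome 9 at 49340627-49408177 (plus strand), and its level is not compared further.

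Drd1, the dopamine receptor of the direct pathway (chromosome 13, 54051183-54055705, minus strand), was present in every library at 38 to 805 reads. The 4 control libraries held 68.6, 186, 97.0 and 69.5 CPM. The shams held 47.5, 65.0, 56.5 and 155 CPM at 3 h, and 324, 172, 51.0 and 213 CPM at 12 h. Sham libraries of 12 h thus spread over 6.35-fold although none had an occlusion (4.18-fold without replicate A, which stands apart). At 24 h the shams held 39.7, 126, 93.9 and 120 CPM, at day 3 they held 74.0, 187, 55.1 and 82.0 CPM, and at day 7 they held 71.5, 188, 74.1 and 46.1 CPM. After MCAO the values were 229, 236, 26.4, 43.5 and 87.9 CPM at 3 h. They were 59.3, 45.1, 19.8, 218 and 54.8 CPM at 12 h. 2 of the 5 MCAO libraries lay below every sham library at either time, and the others lay within or above the sham range. At 24 h the MCAO libraries held 176, 52.3, 33.0 and 492 CPM, a range of 14.9-fold that contained every sham value of that time. At day 3 they held 67.3, 193, 29.5, 274 and 78.0 CPM, and at day 7 they held 148, 166, 32.1, 94.5 and 62.0 CPM. MCAO and sham overlapped for Drd1 at each of the 5 times.

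The highest group mean of Drd1 was 190 ± 113 CPM (SD, n = 4) in sham 12 h, followed by MCAO 24 h at 188 CPM. The lowest was 79.3 ± 78.8 CPM (SD, n = 5) in MCAO 12 h, next to sham 3 h at 81.1 CPM. Ordered by group mean, the gap between neighbours was smaller than the larger of their SDs for 10 of 10 neighbouring pairs, and this held for each of the 8 measured genes. MCAO 12 h had the lowest mean for 7 of the 8 genes, and sham 3 h for Ppp1r1b. Sham 12 h had the highest mean for Drd1, Adora2a, Pde10a, Rgs9 and Pde1b, and MCAO 24 h for Ppp1r1b, Penk and Adcy5.

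**Figure D1:**
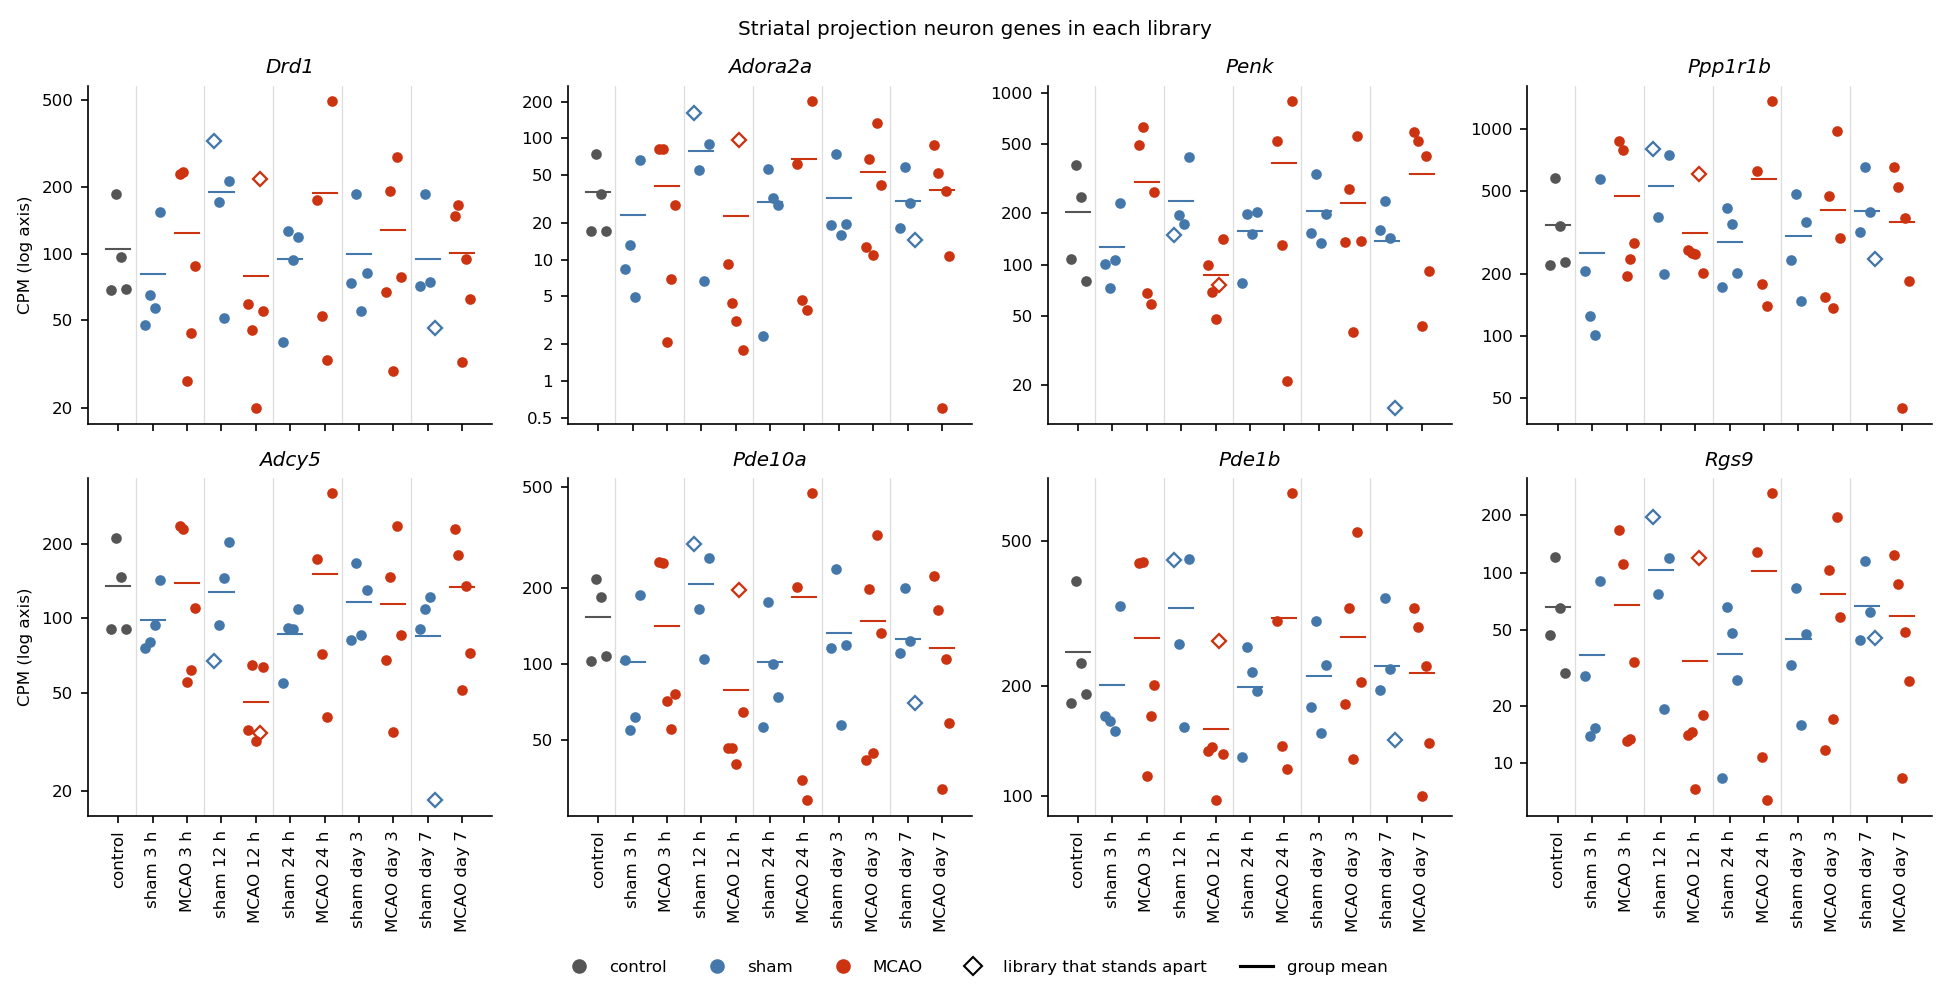
Levels in CPM (log axis) of the 8 measured genes in each of the 48 libraries, by group; points are libraries, open diamonds the 3 libraries that stand apart and lines the group means. Libraries of the same group lie far apart for each gene, and the MCAO groups span wider ranges than most sham groups.

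Libraries of the same group differed several-fold. In the control and sham groups the highest library exceeded the lowest by a median of 2.19-fold for Pde1b to 9.07-fold for Adora2a, the adenosine receptor of the indirect pathway (chromosome 10, 75316877-75334784, plus strand). In the MCAO groups the corresponding medians were 3.86-fold for Pde1b and 52.8-fold for Adora2a. The widest range was that of Adora2a in MCAO day 7, from 0.595 CPM, which is 1 read, to 87.7 CPM. On the log2(CPM + 1) scale the SD within groups ran from 0.70 (Pde1b) to 1.81 (Adora2a), with a median of 1.07. The median over the 11739 genes with a mean of at least 5 CPM was 0.35. The 8 genes lay between percentiles 94.9 and 99.97 of that distribution.

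The spread was present without injury and was wider with it. Within control and sham groups the median SD of the 8 genes was 0.82, against 0.33 for the median gene. Within MCAO groups it was 1.30, against 0.36 for the median gene, and it exceeded the SD of the uninjured groups for 8 of 8 genes. Poisson counting made up 0.25% (Ppp1r1b) to 1.28% (Adcy5) of the variance within groups, against 27.5% for the median gene. The 11 groups together took 10.7% (Drd1) to 25.8% (Adcy5) of the total variance. Group means of 48 values with no difference between groups would take 21.3% on average, and the median gene had 32.4%.

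**Figure D2:**
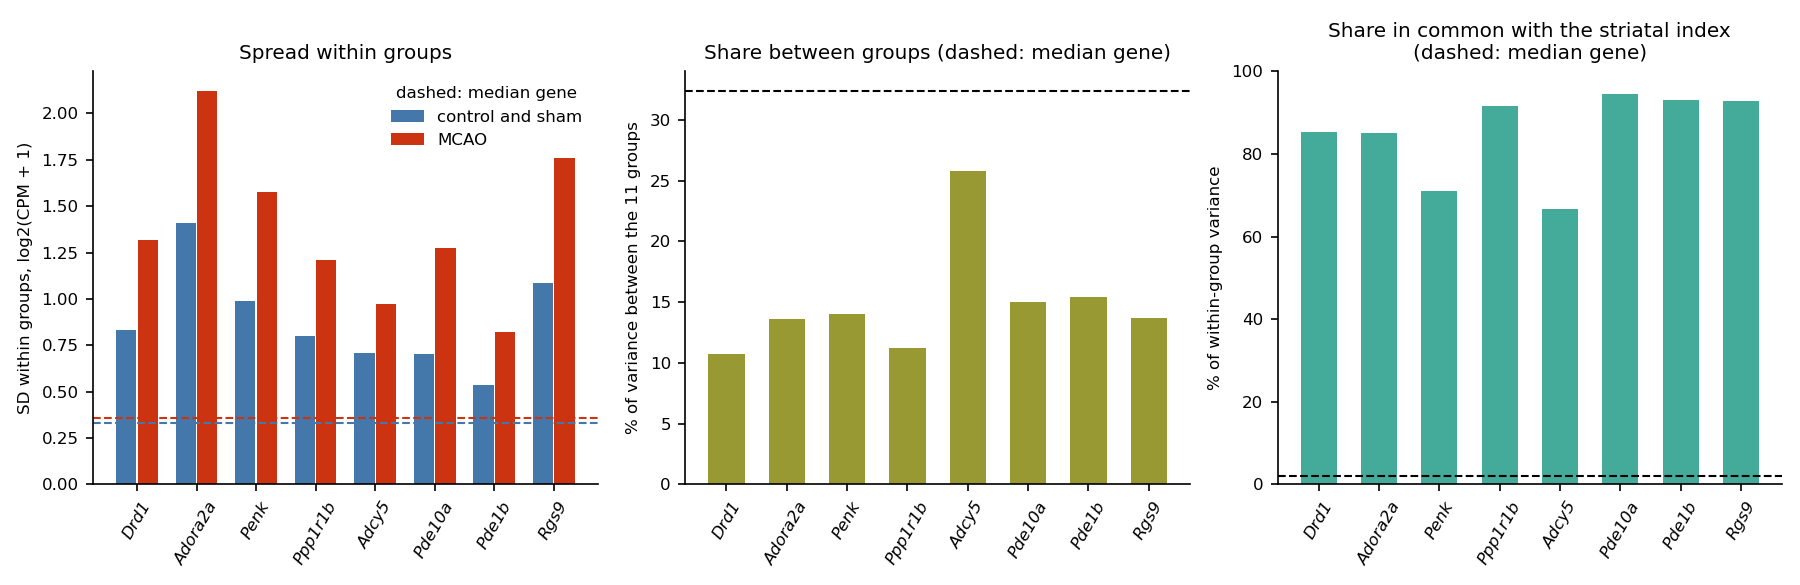
Left, SD of log2(CPM + 1) within groups for control and sham (blue) and MCAO libraries (red); middle, percent of the variance between the 11 groups; right, percent of the variance within groups shared with the striatal index, the mean of 12 other striatal genes. Dashed lines give the median gene: the 8 genes lie above it in spread (0.70 to 1.81 over all groups) and below it in the share between groups (10.7% to 25.8%).

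The genes moved together from library to library. After the group means were subtracted, Pearson r between 2 members ran from 0.66 to 0.97 over 28 pairs and 48 libraries, with a median of 0.90. Genes measured in the same library share its depth, scaling and dissection. Among pairs of every 10th gene of at least 5 CPM, the median r was -0.0017 (range -0.88 to 0.90). The closest pair of members was Drd1 and Pde1b at 0.97, and Pde10a and Rgs9 also reached 0.97. Penk, which encodes the enkephalin precursor (chromosome 4, 4133531-4138819, minus strand), and Adcy5 (chromosome 16, 35154877-35305738, plus strand) were close to each other (0.94) and further from the rest. The lowest pair was Adora2a and Adcy5 at 0.66. Without the 3 libraries that stand apart this pair was at 0.83, and all 28 pairs lay between 0.83 and 0.97. In the 24 control and sham libraries the pairs ran from 0.37 to 0.95 with a median of 0.86, and the lowest were Rgs9 with Adcy5 (0.37) and Adora2a with Adcy5 (0.40). In the 3 libraries that stand apart Penk and Adcy5 were low beside the other genes. In MCAO 12 h replicate D, for example, Drd1 was the highest of its group at 218 CPM while Adcy5 was at 34.1 CPM, within the 31.8 to 64.6 CPM of the group.

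In 9 of the 11 groups, 1 library was the highest for at least 6 of the 8 genes, and in 5 groups it was the highest for all of them. Drd1 of the direct pathway and Adora2a of the indirect pathway had r = 0.94. Among all genes outside the list with a mean of at least 5 CPM, those most like the mean of the members included Gng7 (r = 0.96), Syndig1l (0.96), Tac1 (0.95) and Lrrc10b (0.94), over 48 libraries. These 4 belong to a list of 12 further striatal genes, called the striatal index here, that holds no member (among them Gng7, Rasd2, Gpr6, Rarb, Scn4b, Rxrg, Syndig1l, Ido1, Lrrc10b, Tac1 and Pdyn).

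**Figure D3:**
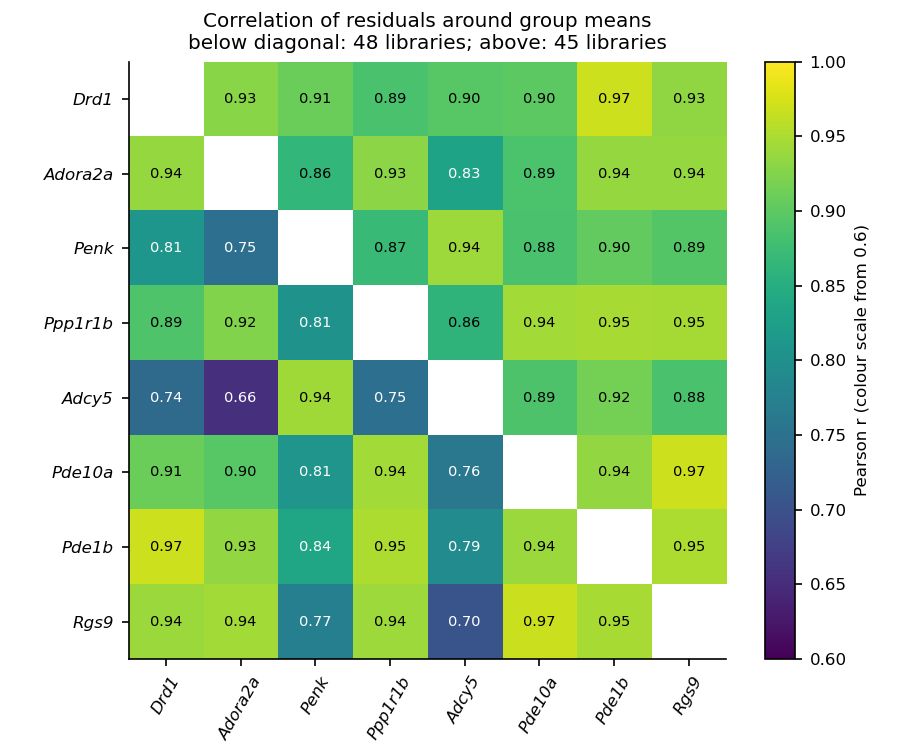
Pearson r of residuals around the group means for each pair of the 8 measured genes, below the diagonal over 48 libraries and above it over the 45 that do not stand apart. Values run from 0.66 to 0.97 below and from 0.83 to 0.97 above, with the low values below the diagonal in the Penk and Adcy5 rows and columns.

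The mean log2(CPM + 1) of the striatal index ran from group means of 3.78 (MCAO 12 h) to 5.63 (sham 12 h). Within groups it shared 66.7% (Adcy5) to 94.5% (Pde10a) of the variance of each member, against 2.09% for the median gene. The slope on the index was near 1 for Drd1 (0.97), Ppp1r1b (0.93), Pde10a (0.95) and Penk (1.05). It was steeper for Adora2a (1.58) and Rgs9 (1.34) and shallower for Adcy5 (0.66) and Pde1b (0.63). After the index was taken out, the SD within groups fell from 1.04 to 0.25 for Pde10a and from 0.85 to 0.50 for Adcy5.

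Whether injury changed these genes was tested with edgeR, where calls needed an adjusted p (Benjamini-Hochberg) below 0.01 and a log2 fold change beyond 0.58 in either direction. No member was called in any of the 5 comparisons of MCAO with sham, 0 of 8 each time. Over all genes tested, 0.11% were called at 3 h, 0.411% at 12 h, 0.0901% at 24 h, 4.02% at day 3 and 3.5% at day 7. DESeq2 also called 0 of 8 at each time, as in all comparisons without a covariate. At an unadjusted p under 0.05, edgeR found 4 of 8 members at 12 h, against 14.6% of all genes, and 0 of 8 at the other times. The shares of all genes at those other times were 8.45% at 3 h, 8.8% at 24 h, 21.6% at day 3 and 23.5% at day 7. Without the 3 libraries that stand apart edgeR found 7 of 8 members at 12 h, against 15.5% of all genes. The 8 genes moved together between libraries (median r of 0.90), so these counts are not counts of separate observations. In bulk tissue, fewer striatal neurons, less RNA per neuron and less striatum in the dissected piece cannot be told apart.

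**Figure D4:**
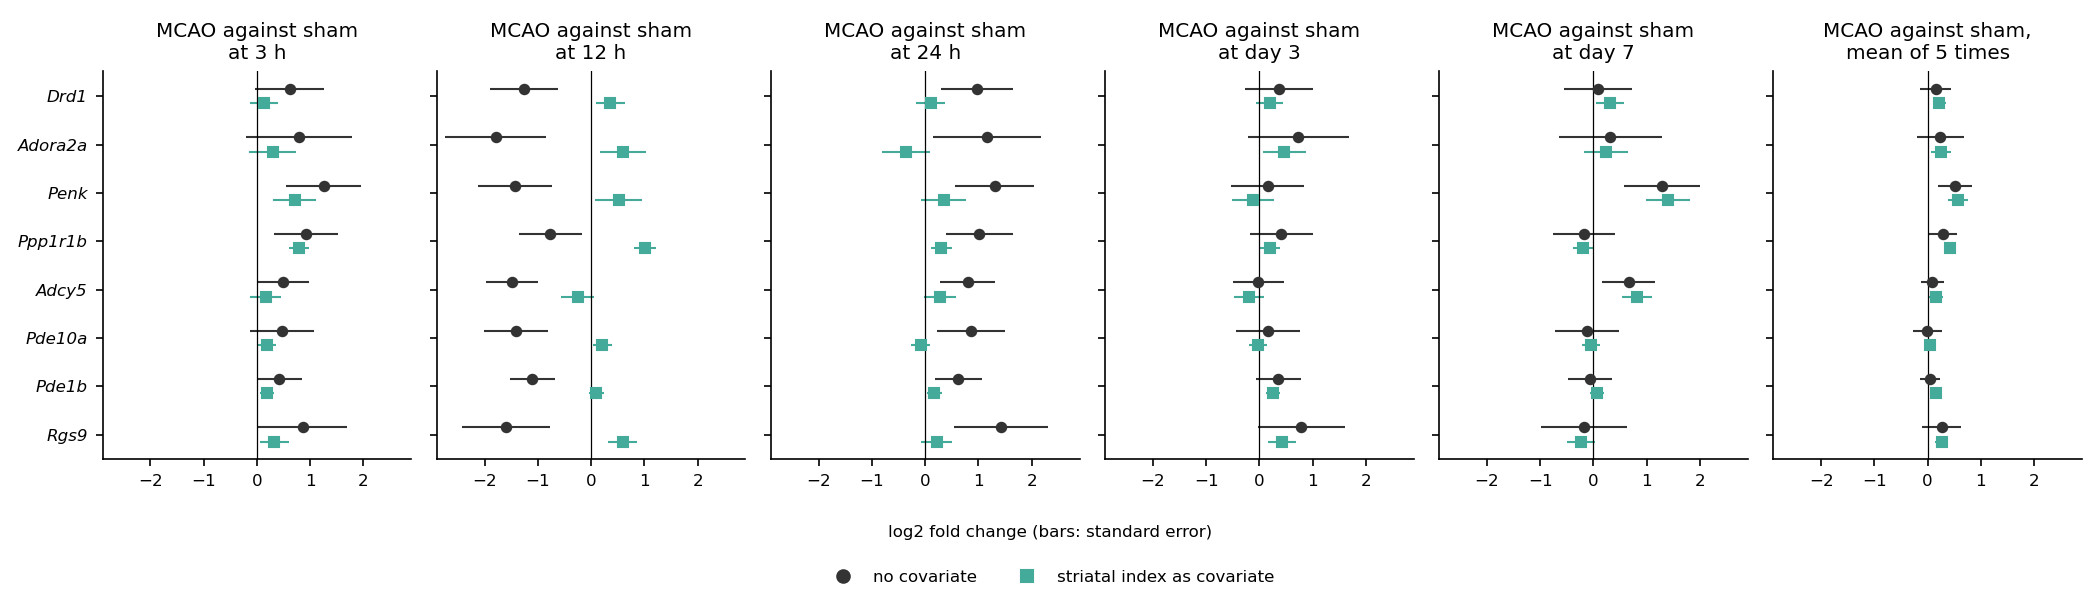
Log2 fold changes of MCAO over sham at each time and averaged over the 5 times, with standard errors, from the fit without a covariate (circles) and with the striatal index as a covariate (squares). At 12 h the circles lie at -0.76 to -1.79, while the squares lie at -0.25 to 1.02, Ppp1r1b being the highest.

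At 12 h all 8 genes were lower after MCAO than in sham, by estimates that did not pass the test. Adcy5 held 67.0, 93.9, 146 and 203 CPM in sham and 35.2, 64.6, 31.8, 34.1 and 63.7 CPM after MCAO. Penk held 148, 195, 172 and 423 CPM in sham and 100.1, 69.4, 48.5, 76.5 and 141 CPM after MCAO. For these 2 genes the groups did not overlap, while for the other 6 they did, and 3.29% of all genes did not overlap at this time. The log2 fold change was -1.48 ± 0.50 (SE, adjusted p = 0.12) for Adcy5 and -1.43 ± 0.70 (SE, adjusted p = 0.33) for Penk. Adora2a held 161, 54.2, 6.65 and 89.6 CPM in sham and 9.27, 4.37, 3.13, 96.5 and 1.79 CPM after MCAO. Here the sham libraries alone spanned 24.3-fold (13.5-fold without replicate A), and the difference of -1.79 ± 0.95 had an adjusted p of 0.38.

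Pde10a, a phosphodiesterase that is most abundant in the striatum (chromosome 17, 8525372-8986648, plus strand), held 299, 165, 104 and 263 CPM in sham 12 h and 46.4, 46.6, 40.2, 196 and 64.3 CPM after MCAO. Pde1b, a calcium-dependent phosphodiesterase (chromosome 15, 103503034-103530052, plus strand), held 443, 261, 155 and 447 CPM in sham and 133, 136, 97.0, 265 and 130 CPM after MCAO. For both, 4 of the 5 MCAO libraries lay below every sham library and replicate D did not. Pde10a differed by -1.41 ± 0.60 (adjusted p = 0.25) and Pde1b by -1.10 ± 0.42 (adjusted p = 0.19). Rgs9, the regulator of G protein signalling (chromosome 11, 109225355-109298129, minus strand), held 197, 77.2, 19.2 and 119 CPM in sham and 14.1, 14.6, 7.30, 119 and 17.9 CPM after MCAO. Again all MCAO libraries but replicate D lay below every sham library, and Rgs9 differed by -1.60 ± 0.82 (adjusted p = 0.36). Drd1 differed by -1.26 ± 0.64 (adjusted p = 0.35). Ppp1r1b (chromosome 11, 98348404-98357796, plus strand), whose libraries are given further on, differed least, by -0.76 ± 0.58 (adjusted p = 0.59).

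Each 12 h group held 1 library that stands apart, and in either group it was the highest for Drd1. Without all 3 such libraries the 12 h differences ran from -0.87 (Ppp1r1b) to -3.31 (Adora2a), again with 0 of 8 called and a smallest adjusted p of 0.099 (Adcy5). The median log2 fold change at 12 h was -1.42 over the 8 genes, -1.82 over the 12 index genes (0 called) and 0.01 over all genes.

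At 3 h and 24 h the estimates were above 0 for all 8 genes, and the groups overlapped for each of them, while 3.58% of all genes did not overlap at 3 h and 5.84% at 24 h. At 3 h the largest was Penk, at 494, 628, 68.0, 59.0 and 264 CPM after MCAO against 101, 73.1, 106 and 228 CPM in sham. 3 of the 5 MCAO libraries exceeded every sham library and the other 2 lay below them all, and the log2 fold change was 1.25 ± 0.71 (adjusted p = 0.66), or 0.79 without MCAO 3 h replicate B. At 24 h the largest was Rgs9, at 128, 10.8, 6.35 and 261 CPM after MCAO against 8.29, 65.7, 48.2 and 27.3 CPM in sham. It differed by 1.43 ± 0.88 (adjusted p = 0.65), with 2 MCAO libraries above every sham library and 1 below them all, and by 0.39 without MCAO 24 h replicate D, the highest. The smallest estimate was that of Pde1b at either time, 0.42 at 3 h and 0.62 at 24 h.

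At day 3 the estimates lay between -0.02 and 0.79, the largest being Rgs9 (0.79 ± 0.82, adjusted p = 0.62), which was at 0.098 without MCAO day 3 replicate D and at 1.27 without sham day 3 replicate B. At day 7 they lay between -0.18 and 1.29, the largest being Penk (1.29 ± 0.71, adjusted p = 0.27). Penk held 587, 522, 44.02, 430 and 91.4 CPM in MCAO day 7 and 158, 235, 143 and 14.6 CPM in sham day 7. The sham library at 14.6 CPM is replicate D, which stands apart, and without the 3 libraries the difference was 0.90. No member separated the groups completely at day 3 or day 7, where 7.14% and 10.5% of all genes did. Averaged over the 5 times, the estimates ran from -0.01 to 0.51, the highest again for Penk (0.51 ± 0.31, adjusted p = 0.31), with 0 of 8 called against 4.89% of all genes. Of the 8 averages 7 were above 0, and 4 without the 3 libraries.

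The operation alone was compared by setting the 5 sham groups against the control. Estimates ran from -0.41 (Adcy5, ± 0.38) to 0.02, with 0 of 8 called, against 0.02% of all genes. At an unadjusted p under 0.05 there were 0 of 8, against 4.78% of all genes. Among the 5 sham times no member passed the test (0 of 8 called, against 0.0851% of all genes), and the smallest adjusted p was 0.82 (Rgs9). Here too 0 of 8 had an unadjusted p under 0.05, against 7.66% of all genes. Whether the MCAO effect changed over the 5 times was tested by the interaction. It called 0 of 8 members, against 0.491% of all genes, and 3 of 8 had an unadjusted p under 0.05, against 17.8% of all genes. Without the 3 libraries that stand apart 6 of 8 did, against 16.5% of all genes. As the members moved together between libraries, they are not separate observations here either. With all 48 libraries the smallest adjusted p of the interaction was 0.17 (Adcy5). Against the control, whose 4 libraries these comparisons share, 0 of 8 members were called at 24 h, day 3 and day 7, where 0.275%, 3.09% and 1.5% of all genes were called. The largest differences were Penk at 24 h (0.94 ± 0.73) and day 7 (0.72 ± 0.70) and Adora2a at day 3 (0.57 ± 0.95). The last was at -0.10 without MCAO day 3 replicate D. Penk at 24 h was at 0.14 without MCAO 24 h replicate D and at 1.42 without control replicate B, and at day 7 it was at 0.42 without MCAO day 7 replicate A and at 1.21 without control replicate B.

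To set the members beside the other striatal genes of the same library, the striatal index was added to the fit as a covariate. The standard errors at 12 h fell from 0.42 to 0.95 without the covariate to 0.15 to 0.44 with it. The 12 h estimates then lay between -0.25 (Adcy5) and 1.02 (Ppp1r1b). Adora2a, Penk, Pde10a, Rgs9, Drd1 and Pde1b were now at 0.10 to 0.60, with adjusted p of 0.45 to 0.86, so that none of their differences from sham passed the test. Since the index holds transcripts of the same neurons, such a difference is one relative to these 12 genes and not an absolute one.

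Ppp1r1b was the 1 of 8 members called with the covariate at 12 h, at 1.02 ± 0.21 (adjusted p = 0.0092), when 0.125% of all genes were called. Ppp1r1b held 803, 377, 198 and 744 CPM in sham 12 h and 259, 251, 249, 604 and 200.1 CPM after MCAO. 4 of the 5 MCAO libraries thus lay between 200.1 and 259 CPM, near the lowest sham library, while Drd1 in these 4 lay at 19.8 to 59.3 CPM. Relative to the index, Ppp1r1b stood at 3.53, 3.33, 2.85 and 3.18 log2 units in sham. After MCAO it stood at 4.60, 4.35, 4.82, 4.16 and 4.05. Pde1b was also higher after MCAO on this scale (2.45 to 2.80 in sham, 2.98 to 3.635 after MCAO), with a covariate estimate of 0.10. The share of all genes whose groups separate on this scale was not computed. The index was itself lower after MCAO (group means 3.78 and 5.63), so a gene that fell less than it rises on this scale. The call was at the threshold. Without the 3 libraries that stand apart the estimate was 1.20 (adjusted p = 0.0083), and with the square of the index added it was 0.99 (adjusted p = 0.017). Leaving out each 12 h library in turn gave 0.86 to 1.12 and adjusted p of 0.0076 to 0.12, and the call was lost in 6 of 9 cases.

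At 3 h Ppp1r1b was 0.79 ± 0.19 above sham with the covariate (adjusted p = 0.042, not called), and at 24 h, day 3 and day 7 its estimates were 0.30, 0.20 and -0.20. Its level over the index was 3.87 ± 0.33 log2 units in MCAO 3 h (SD, n = 5) and 3.06 ± 0.31 in sham 3 h (SD, n = 4). By day 7 it was 3.27 ± 0.45 (SD, n = 5) and 3.51 ± 0.30 (SD, n = 4). The interaction of MCAO with time for Ppp1r1b had an adjusted p of 0.029 with the covariate, above the threshold of 0.01. Averaged over the 5 times its difference was 0.42 ± 0.09 (adjusted p = 0.00036), which is under the fold threshold. Without the covariate this average was 0.28 ± 0.27.

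**Figure D5:**
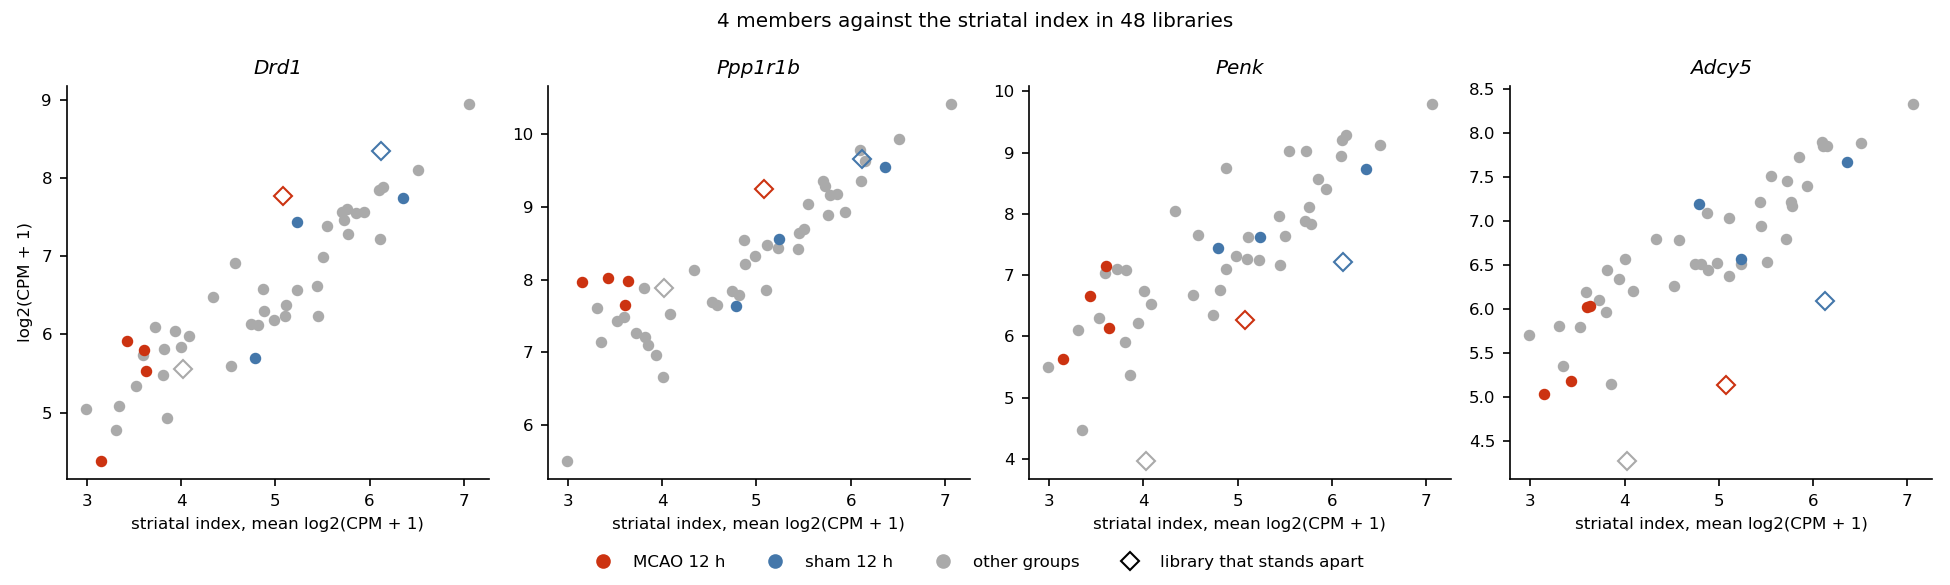
Log2(CPM + 1) of Drd1, Ppp1r1b, Penk and Adcy5 against the striatal index in 48 libraries, with MCAO 12 h in red, sham 12 h in blue, other groups in grey and the 3 libraries that stand apart as open diamonds. Ppp1r1b in MCAO 12 h lies above most libraries of a like index, and Penk and Adcy5 lie low in the open diamonds.

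With the covariate, no member was called in the other comparisons of MCAO with sham, 0 of 8 at 3 h, 24 h, day 3, day 7 and on average. The shares of all genes called were 0.135%, 0.0851%, 4.25%, 3.48% and 4.54% in that order. Penk was 1.40 ± 0.41 above sham at day 7 (adjusted p = 0.021) and 0.57 ± 0.18 on average (adjusted p = 0.026). Without the 3 libraries that stand apart its day 7 value was 1.13 (adjusted p = 0.072). Adcy5 was 0.82 ± 0.29 above sham at day 7 (adjusted p = 0.063), and 0.58 without the 3 libraries (adjusted p = 0.13).

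Other genes of dopamine and cyclic AMP signalling were read from a list of 34, of which 31 were tested. At day 7, 5 of 31 were called, all lower than in sham, against 3.5% of all genes. The largest decreases were in Rgs4, a regulator of G protein signalling (-1.23 ± 0.29, adjusted p = 0.0040), and Adora1, an adenosine receptor (-1.11 ± 0.19, adjusted p = 0.00011). Adcy1, a calcium-activated adenylyl cyclase of the forebrain, followed (-0.95 ± 0.20, adjusted p = 0.0016). Without the 3 libraries that stand apart 2 of 31 were called at day 7, among 253 of 19854 genes. Adora1 was 1 of them (-1.08, adjusted p = 0.0012), while Rgs4 (-1.21, adjusted p = 0.016) and Adcy1 (-0.83, adjusted p = 0.016) were not. At 3 h 1 of 31 was called, Rgs2, an early-response regulator of G protein signalling, which was higher (1.47 ± 0.30, adjusted p = 0.0096). None of the 31 was called at 12 h, 24 h or day 3, but without the 3 libraries Cdk5, a kinase that phosphorylates the Ppp1r1b product, was called lower at 12 h (-0.76, adjusted p = 0.0099). On average over the 5 times Rgs2 was higher (0.77) and Adcy1 lower (-0.61), and the other 29 were not called. The median over the 31 genes was -0.34 at day 7, against 0.06 over all genes. Other neuronal lists also had medians below 0 at day 7, at -0.31 for 9 pan-neuronal genes (2 called lower), -0.82 for 12 genes of cortical projection neurons (2 called lower) and -0.56 for 8 interneuron genes (2 called lower). The median of 7 microglial genes was 1.26 (3 called higher), and the part of these cells in the day 7 values of the 31 genes was not tested.

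Markers of other cells and regions were measured in the same libraries. After subtraction of the group means, their mean levels correlated with that of the members at r = 0.77 for 8 interneuron genes and 0.69 for 6 oligodendrocyte genes. They did so at -0.56 for 12 genes of cortical projection neurons, 0.35 for 7 astrocyte genes, 0.15 for 9 pan-neuronal genes and 0.03 for 7 microglial genes. The interneuron list was not limited to cells outside the striatum and included Chat and Slc5a7. The 10 thalamic genes were at 0.23, the 10 hippocampal genes at -0.10, the 8 choroid plexus genes at 0.09 and the 5 endothelial genes at 0.26, and log2 library size at -0.27. Libraries high in striatal genes were thus low in cortical projection neuron genes. The summed cortical genes ran from 906 to 2876 CPM over the 48 libraries (median 1992), the summed index genes from 154 to 2956 CPM and the summed members from 313 to 4668 CPM. At 12 h the oligodendrocyte genes held 901 to 1911 CPM after MCAO and 1619 to 3684 CPM in sham. The cortical genes held 1927 to 2142 CPM and 1807 to 2063 CPM at that time. Of these lists, astrocytes had 1 gene called higher at 12 h, microglia and endothelium 1 each called lower, and the others 0, against 0.411% of all genes. Without the 3 libraries that stand apart the astrocyte gene Gfap was still called. The microglial gene P2ry12 (adjusted p = 0.0105) and the endothelial gene Slco1a4 (adjusted p = 0.015) were not. The part of these cells in the differences of the members was not tested.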

How the data were processed

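RNA from the injured side of the brain was sequenced as single-end 3′ libraries with added ERCC spike-in transcripts. The authors trimmed the reads, removed ribosomal reads, aligned them with STAR 2.5.2b to GRCm38 and counted reads per Gencode gene with htseq-count, and they deposited raw counts per library. The authors also deposited a variance-stabilized matrix on a log2 scale, from which the spread within groups was computed a second time. All count columns belonged to samples of the series. A median of 23.5% of reads fell in no gene, 0.4% were ambiguous and 33.5% were not uniquely aligned, and these entries stayed out of library sizes.

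Genes with more than 10 reads over all libraries (19970) were fitted with edgeR 4.0.16 (R 4.3.3, limma 3.58.1), with TMM scaling, 1 mean for each of the 11 groups and the quasi-likelihood test. Calls needed an adjusted p (Benjamini-Hochberg) below 0.01 and a log2 fold change beyond 0.58 in either direction, or that adjusted p alone for tests over several times. Errors of fold changes are standard errors. The alternatives were DESeq2 1.42.0, spike-in scaling, other filters, the replicate letter as a block, each library left out, and the striatal index as covariate. The test without the 3 libraries that stand apart, alone, with the index or for the other gene lists, and the square of the index were chosen after seeing the data. Spread and correlations used log2(CPM + 1) in Python 3.11.15 (numpy 2.4.6, pandas 2.3.3, scipy 1.17.1, matplotlib 3.10.9). The fit was tested on simulated data shaped as MCAO against sham at day 7 (19648 genes). It recovered 53 of 100 genes changed by 1 log2 unit and 94 of 100 changed by 1.5. The 8 measured members had SDs within groups of 0.70 (Pde1b) to 1.81 (Adora2a) on the log2(CPM + 1) scale, against 0.35 for the median gene. Recovery of changes at the spread of the members was not tested.

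The members and gene lists were chosen with earlier results of these data known. Without the covariate, fold changes of single members outside 12 h were mainly named for the member with the largest estimate in a comparison. Pde1b was also named as the smallest at 3 h and 24 h, and Ppp1r1b for its average. With the covariate, Ppp1r1b, Penk and Adcy5 were named outside 12 h by no such rule. Other named genes came from the 5 most like the member mean by r, not all of which are reported here. At most 3 called genes were named per other list and comparison. The labels do not say that the libraries of a group are separate animals, while the study's text counts mice per condition, and the p-values measure the spread between these libraries. Depth was 1522668 to 2826735 reads in genes.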

Additional observations from a re-analysis of the deposited data

Results flagged for a closer look

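In 88 sets of 4 or 5 libraries (8 genes in 11 groups), 4 held a library far from the others by Dixon's test on log2(CPM + 1). About 4.4 would be found by chance. Levels are given in CPM, while each gap is a share of the range on the log2(CPM + 1) scale. Ppp1r1b in MCAO 12 h was highest in replicate D at 604 CPM, with 259 CPM next, a gap of 0.766 of the range of the 5 libraries. Adora2a in sham day 3 was highest in replicate B at 73.9 CPM, with 19.7 CPM next, a gap of 0.864 of the range. Adcy5 in sham day 7 was lowest in replicate D at 18.3 CPM, with 90.9 CPM next, a gap of 0.843 of the range. Pde1b in sham 3 h was highest in replicate D at 332 CPM, with 165 CPM next, a gap of 0.882 of the range. MCAO 12 h replicate D and sham day 7 replicate D are among the 3 libraries that stand apart.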

How the results depend on the processing

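The number of members called was 0 under all alternatives for 11 of the 12 comparisons. At 12 h it was 1 (Ppp1r1b) with the striatal index as covariate, and 1 with the index and without the 3 libraries that stand apart. With the index, 12 h estimates turned positive for Drd1 (0.36), Ppp1r1b (1.02), Adora2a (0.60), Penk (0.52), Pde10a (0.21), Rgs9 (0.59) and Pde1b (0.10). With the index and without the 3 libraries they were 0.30, 1.20, 0.018, 0.57, 0.13, 0.50 and 0.16 in the same order, and with the index and its square 0.37, 0.99, 0.66, 0.60, 0.19, 0.64 and 0.058. With this covariate each gene is set against other striatal genes of its library, and beyond that the cause was not tested. Adora2a in MCAO day 3 against control ran from -0.10 to 1.20 with each library left out, below 0 without MCAO day 3 replicate D. With the index, libraries were left out in turn at 12 h only. The median SD within groups was 0.97 to 1.08 under other scalings and pseudocounts and 1.02 to 1.09 with each library left out.

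Between MCAO and sham libraries of the same time and letter, deviations from the group means had r of -0.31 to 0.17 (20 pairs, 8 above 0.1). Libraries of unlike letters were not compared, so these values cannot settle whether the letters pair the libraries. The replicate block called 0 of 8 members in every comparison and 53 genes at 12 h in place of 82. DESeq2 called 179 genes at 12 h, 58 at 3 h in place of 22, 44 at 24 h in place of 18 and 1096 at day 7 in place of 698. It also called 120 against control at 24 h in place of 55, 463 against control at day 7 in place of 300, 31 among sham times in place of 17 and 475 in the interaction in place of 98. The index left 25 at 12 h, and leaving out the 3 libraries left 253 at day 7 and 34 at 3 h. Spike-in scaling moved the median log2 fold change of all genes to -0.22 at day 3 and 0.14 at day 7, and called 39 genes at 24 h, 14 at 3 h and 7 in sham against control in place of 4.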

Other observations

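The replicate letters of the labels, whose meaning is not given in the sources used here, did not share the levels of the striatal genes evenly, as noticed after the values were seen. Replicate C had the lowest mean of the 8 members in 8 of 11 groups and the highest in 0. Replicate D had the highest in 5 and replicate B in 4. For the striatal index, replicate C was lowest in 6 of 11 groups and highest in 0. The difference of replicate C from its group mean ran from -1.96 to 0.29 log2 units for the members, with a median of -0.83. This pattern was not tested.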
